A study of Mus musculus with 54 samples.

Results

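The 7 mouse genes H2-Aa, H2-Ab1, H2-Eb1, Cd74, H2-DMa, H2-DMb1 and Ciita of the MHC class II pathway were followed through 54 kidney RNA libraries. They were taken by name, as 7 of the 33126 genes listed in at least 1 library, and every one of the 7 was listed somewhere. The libraries were 39 droplet (10x) libraries of cells or nuclei and 15 bulk RNA-seq libraries, in 18 groups of 3, made to compare ways of dissociating, storing and profiling adult mouse kidney. The first experiment used male AFAPIL.1DEL C57BL/6J mice of 19 weeks from one litter. Their kidneys were dissociated on ice with a protease of Bacillus licheniformis (cold) or at body temperature with a commercial enzyme kit (warm), and each suspension was run fresh, after cryopreservation and after methanol fixation on 10x chemistry version 2, with bulk libraries of the cold and warm suspensions. The second used male Balb/c littermates of 18 weeks (fresh cold cells, nuclei spun in the steps labelled 3x500g, and bulk intact kidney, chemistry version 2). The third used female Balb/c former breeders of 15 weeks (fresh and cryopreserved cold cells, nuclei prepared as 3x500g, as 1x2000g or over a sucrose cushion, chemistry version 3, and bulk cold suspension and intact kidney). Nuclei came from flash-frozen kidneys. The 3x500g and 1x2000g nuclei were sorted by fluorescence (FANS), and the sucrose nuclei were not sorted. The study states that the 3 libraries of a group came from kidneys of different mice. It also reports that cryopreserved Balb/c female suspensions were stored for a shorter time and spun faster than those of C57BL/6J. Strain and sex therefore move together with experiment, age, the way of cryopreserving and in part with chemistry, and those differences cannot be told apart.

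MHC class II molecules are pairs of an alpha and a beta chain that carry peptides from internalised protein to the cell surface, where helper T cells read them. H2-Aa and H2-Ab1 encode the chains of the I-A molecule and H2-Eb1 the beta chain of I-E, while Cd74 encodes the invariant chain that escorts new class II pairs and blocks their groove. H2-DMa and H2-DMb1 encode the H2-DM pair that exchanges the remnant of the invariant chain for other peptides, and Ciita encodes the coactivator without which the pathway is largely silent. Constitutive class II expression belongs to dendritic cells, B cells and many macrophages, and interferon-gamma can switch it on in other cells, kidney epithelium and endothelium among them.

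Ciita acts at a shared promoter module, to which RFX, CREB and NF-Y proteins bind at the X and Y boxes. The 300 bases around the start sites (250 before and 50 after) of 3 members are shown because members moved together across cell classes, and H2-DMb1 is included for its level in podocyte-like barcodes. They are RefSeq sequences on build GRCm38.p6, at chr17:34152941-34153240 on the plus strand for H2-DMb1, chr17:34287774-34288073 on the minus strand for H2-Aa and chr17:34305617-34305916 on the plus strand for H2-Eb1. Capitals mark every match, on either strand, to 3 motifs: CCAAT (the core of the Y box), an X1 box pattern (a G, 2 open positions, AC, an open position and GATG) and TGACGT (the core that CREB proteins recognise).
H2-DMb1: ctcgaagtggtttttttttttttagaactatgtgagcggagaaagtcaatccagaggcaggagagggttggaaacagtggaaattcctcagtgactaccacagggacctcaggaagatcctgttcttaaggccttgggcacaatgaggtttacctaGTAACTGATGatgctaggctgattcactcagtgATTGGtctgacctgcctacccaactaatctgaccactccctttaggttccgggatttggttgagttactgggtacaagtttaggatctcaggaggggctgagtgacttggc
H2-Aa: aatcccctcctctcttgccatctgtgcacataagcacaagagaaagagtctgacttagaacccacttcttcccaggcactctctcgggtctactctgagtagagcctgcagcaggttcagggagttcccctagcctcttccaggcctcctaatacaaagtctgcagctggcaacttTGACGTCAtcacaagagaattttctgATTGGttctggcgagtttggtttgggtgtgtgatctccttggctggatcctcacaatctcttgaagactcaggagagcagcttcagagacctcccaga
H2-Eb1: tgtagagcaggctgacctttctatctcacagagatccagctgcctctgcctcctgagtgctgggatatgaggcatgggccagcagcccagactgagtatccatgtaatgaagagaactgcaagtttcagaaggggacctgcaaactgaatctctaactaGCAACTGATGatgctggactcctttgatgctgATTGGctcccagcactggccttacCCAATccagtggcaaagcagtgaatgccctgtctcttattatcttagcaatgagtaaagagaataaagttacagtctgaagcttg
CCAAT or its complement ATTGG lay at -61 in H2-DMb1, at -48 in H2-Aa and at both -35 and -59 in H2-Eb1, counted from the start site. GTAACTGATG stood at -94 in H2-DMb1 and GCAACTGATG at -91 in H2-Eb1, while H2-Aa held TGACGT and its complement overlapping at -74 and -72. Of 32851 promoters of this length, 37.4% held CCAAT, 2.97% held the X1 box pattern and 7.51% held TGACGT. H2-DMa has 2 entries, of which the one at chr17:34125268-34125567 held ATTGG at -198 and the one at chr17:34122582-34122881 held none of the 3. H2-Ab1 and Ciita are named only. A match is a description of these letters and not a binding site.

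On the GENCODE annotation of GRCm38, 5 members lie on chromosome 17, H2-DMa at 34119541-34139101, H2-DMb1 at 34153072-34160230, H2-Ab1 at 34257689-34269419, H2-Aa at 34282744-34287823 (minus strand) and H2-Eb1 at 34305867-34316674. Ciita lies on chromosome 16 at 10480059-10528418 and Cd74 on chromosome 18.

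The 10x libraries held 175959 barcodes (77656 of cells, 98303 of nuclei) and 983522 to 35170947 unique molecular identifiers (UMIs) each, and the bulk libraries 2326998 to 31093949 reads. Clusters were given names such as "macrophage-like" from fixed markers, and between 0.685% and 3.59% of barcodes of a set stayed unnamed. The members and the other pathway genes were left out of the clustering and of the markers, but the genes they move with were not, so a class against the rest is described and not tested. Levels are counts per 1000000 UMIs of a class (CPM), given as mean ± SD over libraries with at least 10 barcodes of the class. By the study's methods a gene was kept only if at least 10 cells held it, and the tables still list 0 to 852 genes a library that fewer barcodes hold. Of the members only Ciita was listed at 0, in 10 libraries (all 6 methanol libraries, the 3 Balb/c male libraries of cells and 1 warm cryopreserved library), and no level or difference of Ciita is given for those groups. The 13 mitochondrial genes were listed in the cells of C57BL/6J males and Balb/c females, where they took a mean of 29.6% and 32.9% of fresh cold UMIs, and in no library of Balb/c male cells or of nuclei, so CPM of the latter are shares of the other genes' UMIs alone. Companions below means the summed level of 11 immune transcripts that are no members (C1qa, C1qb, C1qc, Lyz2, Tyrobp, Fcer1g, Cd52, Laptm5, Ptprc, Igkc and Cd79a), printed beside the members wherever immune RNA could add to a class.

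In fresh cold C57BL/6J kidneys the members stood in 3 tiers. Macrophage-like and dendritic-like barcodes came first, B-like and monocyte-like barcodes second, and all other classes far lower. The summed members took 121916, 106267 and 84784 CPM of the 3 macrophage-like pools (104322 ± 18642, 638 barcodes) and 100904, 79867 and 83035 CPM of the dendritic-like pools (87935 ± 11343, 117 barcodes), so these classes overlapped. B-like barcodes held 44424, 36294 and 30025 CPM (269 barcodes) and monocyte-like barcodes 48885, 22213 and 13363 CPM (105 barcodes), again overlapping each other but below every library of the first tier. At a coarser clustering (Leiden resolution 1) the monocyte-like mean was 8293 CPM, below every B-like library given here. Thin limb-like barcodes held 2990, 1060 and 700 CPM and endothelial-like barcodes 948, 1083 and 1201 CPM. The thin limb-like class was small, 0.552% to 1.10% of the barcodes of a library. Its C57BL/6J clusters, numbered 32 and 43, had 79 and 25 fresh cold barcodes with 101 and 115 Cd74 UMIs. The tubule cadherin gene Cdh16 stood at 572 CPM in cluster 32 and at 71.7 CPM in cluster 43, so the name is less certain for the latter. Proximal tubule-like barcodes, the largest class with 7409, held 325, 250 and 306 CPM (293 ± 39), below every library of the thin limb-like and endothelial-like classes. The remaining tubule-like classes had means of 230 CPM (principal cell-like) to 398 CPM (thick ascending limb-like), within which neighbours differed by less than their spread.

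Macrophage-like barcodes stood first in both Balb/c groups as well. Macrophage-like barcodes held 187806, 148487 and 80263 CPM in Balb/c males and 67407, 62062 and 74643 CPM in Balb/c females. Monocyte-like barcodes held 64145, 57064 and 48907 CPM in males, and 23872 and 29813 CPM in the 2 female libraries with enough of them. B-like barcodes of 2 male libraries held 65143 and 56356 CPM. Of dendritic-like barcodes, 1 female library held 17, at 50504 CPM, and no other fresh cold Balb/c library held 10. Thin limb-like barcodes held 1450, 813 and 1248 CPM in males and 908, 1281 and 1175 CPM in females, and proximal tubule-like barcodes 354, 239 and 446 CPM against 98.2, 130 and 108 CPM. The female values for proximal tubule lay below every male library of either strain, a difference between chemistries and sexes as well as experiments that was not tested. Of mural-like barcodes in Balb/c males, 1 library held no member UMI and another 6016 CPM.

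**Figure D1:**
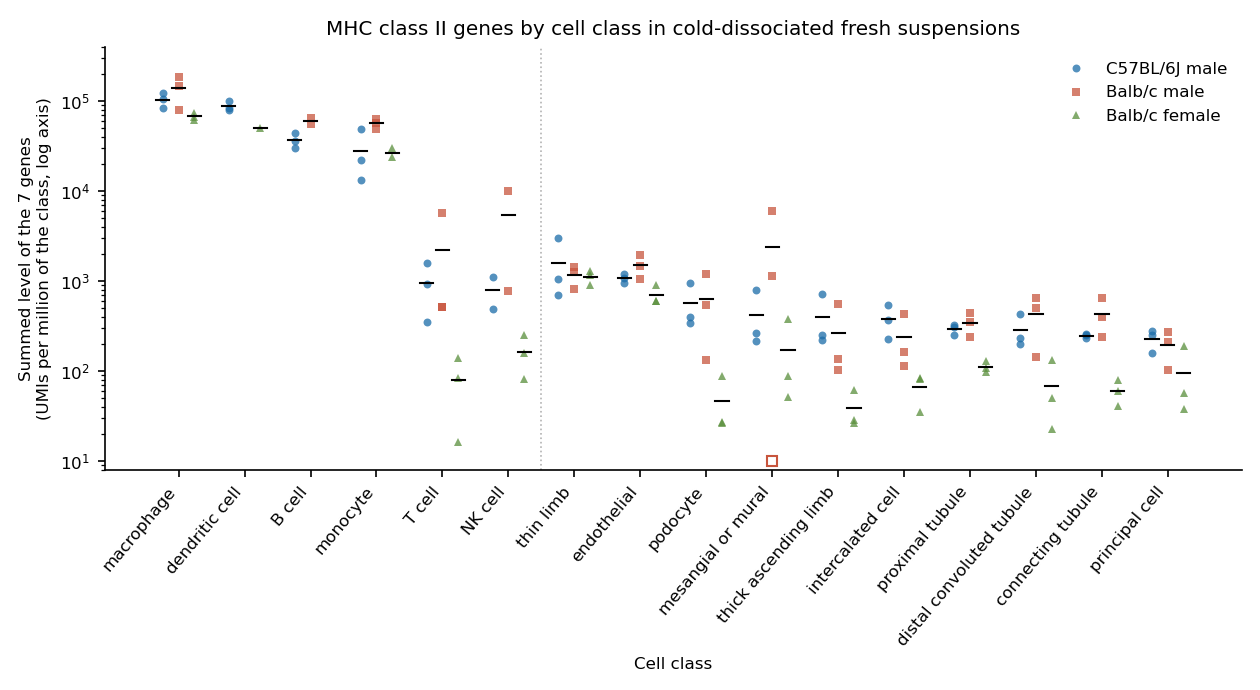
Summed CPM of the 7 members (log axis) in each cell class of fresh cold cells, one point per library, for C57BL/6J males, Balb/c males and Balb/c females. Macrophage-like pools lie between 62062 and 187806 CPM and proximal tubule-like pools between 98.2 and 446 CPM. The mural-like pool at 0 is drawn as an open symbol at the foot of the axis.

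Among the members Cd74, the invariant chain, gave most of the UMIs. In C57BL/6J macrophage-like barcodes it held 74015, 69374 and 55928 CPM, against 19219, 14714 and 11414 CPM for H2-Ab1, 13530, 10535 and 8052 CPM for H2-Aa and 12684, 9674 and 7651 CPM for H2-Eb1. The H2-DM genes were lower by an order of magnitude, H2-DMa at 1240, 936 and 760 CPM and H2-DMb1 at 1194, 1003 and 953 CPM. Ciita was sparse, with 34.8, 30.5 and 26.8 CPM from 25 UMIs. UMIs are read from one end of a transcript, so levels of different genes are compared per length only in the bulk libraries. There, in C57BL/6J cold suspensions, the mean CPM per kilobase of exon was 275 for Cd74, 68.1 for H2-Eb1, 59.6 for H2-Aa, 37.1 for H2-Ab1, 14.3 for H2-DMb1, 3.91 for H2-DMa and 2.40 for Ciita. The divisor was all annotated exon bases of a gene and not the length of a transcript. It was 3798 bases for H2-Aa and 3448 for H2-DMa, against 1944 for H2-Eb1 and 1681 for H2-DMb1. The order of the genes depends on this choice.

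Over 132 class sums of the 9 fresh cold libraries the members followed each other. As a description over points that share libraries and depth, Pearson's r of log2(CPM + 1) was highest between H2-Eb1 and Cd74 (0.94), 0.89 between H2-Aa and H2-Ab1, and lowest between Ciita and H2-DMb1 (0.57). Of 8675 genes ranked by their likeness to the summed members, Ly86 (0.847), Pld4 (0.845), Rnase6 (0.813), Cybb (0.806) and Wfdc17 (0.798) stood first.

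Immune-like classes made up a small part of the barcodes and most of the class II UMIs. In fresh cold C57BL/6J cells they were 11.6% of barcodes and held 94.9% of member UMIs, with 3.76% in tubule-like classes. The share was 89.2% in Balb/c males (8.96% of barcodes) and 92.5% in Balb/c females (5.93%), and macrophage-like barcodes alone held 60.0%, 54.6% and 77.1% in the 3 groups. In nuclei the picture was different. Immune-like nuclei held 24.7% of member UMIs in 3x500g, 37.5% in 1x2000g and 45.4% in sucrose preparations of females, and 11.2% in males. They were only 0.390%, 0.763%, 0.918% and 0.284% of barcodes in that order. Tubule-like nuclei held 41.6%, 31.6%, 24.6% and 71.1% of member UMIs, from 81.8%, 76.3%, 74.7% and 89.9% of barcodes. Unnamed nuclei held another 14.5%, 8.39%, 10.9% and 2.73%, and in females they included a cluster with the leukocyte gene Ptprc at 718 to 816 CPM, so some nuclei with leukocyte transcripts stand outside the immune-like shares. H2-DMb1 was the member held least by immune-like classes in fresh cold C57BL/6J cells, at 78.3% against 92.7% to 95.6% for the other 6.

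H2-DMb1 also stood in podocyte-like barcodes, named after the filter cells of the glomerulus. Fresh cold C57BL/6J podocyte-like barcodes held H2-DMb1 at 127, 187 and 133 CPM (149 ± 33.1, 125 UMIs in 353 barcodes), above every proximal tubule-like library (14.4, 17.2 and 9.76 CPM). The level was 93.2, 66.1 and 189 CPM after cryopreservation and 188, 151 and 92.5 CPM after methanol, overlapping the fresh values (log2 differences of -0.51 ± 0.30 and -0.29 ± 0.26, edgeR adjusted p = 0.42 and 0.473, with 3.24% and 21.4% of genes called and 0 of 4 members in each by edgeR and by DESeq2, 0 of 4 also at an unadjusted p under 0.05). Its partner H2-DMa had only 4 UMIs in the same fresh barcodes, 5.29 CPM. In Balb/c males 399 podocyte-like barcodes held a single H2-DMb1 UMI (12.6, 0 and 0 CPM), and in Balb/c females 407 held 2 UMIs (0, 3.42 and 0 CPM). The neighbouring near copy H2-DMb2 had 0 UMIs in podocyte-like barcodes of either group of males and 1 in those of Balb/c females, and the part of read assignment between the copies in the strain difference was not tested. Against C57BL/6J males, the Balb/c male level was lower by 5.58 ± 0.64 on the log2 scale (95% interval -6.87 to -4.30, edgeR adjusted p = 1.6e-05). Of 2165 genes tested in these barcodes 7.67% were called. H2-DMb1 passed the filter on low counts through the C57BL/6J libraries alone, and its difference rests on a single Balb/c male UMI. The gene was also taken up for its C57BL/6J level, so this test adds no support to the counts. A UMI of H2-DMb1 was seen in 28.0% of C57BL/6J podocyte-like barcodes (median depth 2325 UMIs) and in 0.491% of Balb/c female ones (median depth 3665). After thinning every barcode to 500 UMIs the shares were 7.12% (95% Wilson interval 4.83 to 10.4) and 0 of 403, which allows up to 0.744%. Cd74 and H2-Ab1 in the same barcodes did not pass the test between strains (0.30 ± 0.55 and -1.21 ± 0.64, edgeR adjusted p = 0.779 and 0.274).

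**Figure D2:**
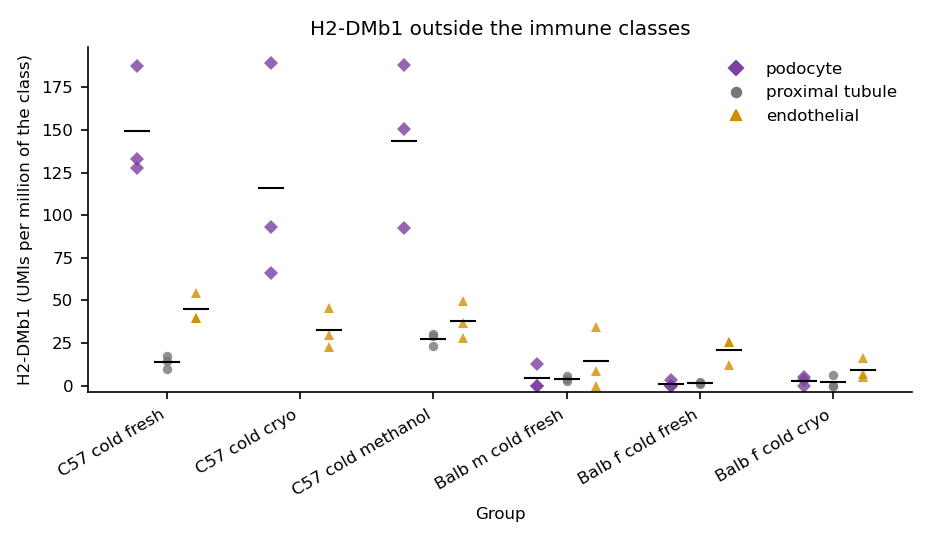
H2-DMb1 CPM per library in podocyte-like, proximal tubule-like and endothelial-like barcodes of 6 groups of cells. The C57BL/6J podocyte-like points lie between 66.1 and 189 CPM and the Balb/c ones between 0 and 12.6 CPM.

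The H2-DM beta chain has a second gene, H2-DMb2, which lies beside H2-DMb1 on the same strand (chr17:34143307-34151555). How the counting split reads between such near copies is uncertain, and so are the levels of H2-DMb1 above and the shares below. In C57BL/6J fresh cold cells the 2 beta genes had different shares in different classes. B-like barcodes held 369 UMIs of H2-DMb2 and 40 of H2-DMb1, a share of 90.2% H2-DMb2 (87.0 to 92.7, and 91.7%, 91.0% and 87% in the 3 libraries), beside 189 UMIs of H2-DMa. Macrophage-like barcodes held 15 against 858 UMIs, 1.72% H2-DMb2 (1.04 to 2.82), and dendritic-like barcodes 17% (14.1 to 20.4). Podocyte-like barcodes had 0 of 125. All intervals here are 95% Wilson intervals and cover counting error only.

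The B-like share of Balb/c males overlapped that of C57BL/6J males, and the myeloid shares lay above. Balb/c male B-like barcodes held 91.0% H2-DMb2 (82.6 to 95.6), while macrophage-like barcodes held 35.3% (33.0%, 36.9% and 40% in the 3 libraries) and monocyte-like barcodes 36.8%. Balb/c female macrophage-like barcodes held 26.6%, 22.6% and 25.3%, all far above C57BL/6J. Between males, H2-DMb2 was higher in Balb/c by 4.69 ± 0.38 in macrophage-like barcodes (edgeR adjusted p = 8.01e-07) and by 4.77 ± 0.65 in monocyte-like barcodes (edgeR adjusted p = 0.000354), from a C57BL/6J macrophage-like level of 17.4 CPM. Of all genes, 3.38% were called in macrophage-like barcodes and 2.45% to 9.49% in the 9 classes that include the monocyte-like one. In macrophage-like barcodes H2-DMb2 passed the filter on low counts through the Balb/c libraries, where it is high. Both tests use the UMIs of the shares above and add no support to them. In Balb/c males 0% of barcodes were named dendritic-like, and monocyte-like ones held 26.4% of member UMIs against 4.00% in C57BL/6J. Whether the myeloid classes hold the same cells in both strains was not tested. Summed over all barcodes, where B-like barcodes also contribute, H2-DMb2 did not differ beyond the spread (0.04 ± 0.21, edgeR adjusted p = 0.929). H2-Oa and H2-Ob, whose product restrains H2-DM, had 323 and 310 CPM in C57BL/6J B-like barcodes, 379 and 119 CPM in dendritic-like and 49.0 and 27.1 CPM in macrophage-like ones.

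**Figure D3:**
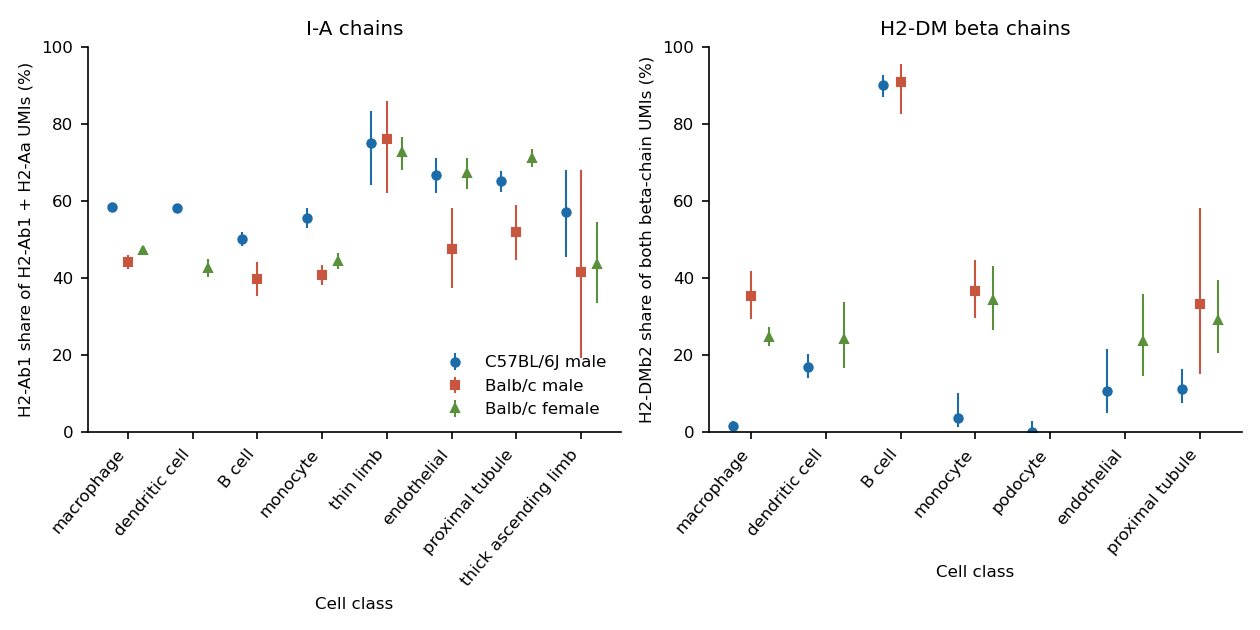
Left, H2-Ab1 as a percent of H2-Ab1 plus H2-Aa UMIs; right, H2-DMb2 as a percent of H2-DMb1 plus H2-DMb2 UMIs, by class and group of fresh cold cells with 95% Wilson intervals. B-like barcodes stand near 90% on the right in both males, and macrophage-like barcodes at 1.72%, 35.3% and 24.7%.

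The I-A chains also had a ratio that differed between classes. H2-Ab1 made up 58.5% of H2-Ab1 plus H2-Aa UMIs in C57BL/6J macrophage-like barcodes (57.8 to 59.2) and 47.2% in Balb/c female ones (46.6 to 47.8). In thin limb-like barcodes it was 75% (64.2 to 83.4) in C57BL/6J, 76.1% (62.1 to 86.1) in Balb/c males and 72.6% (68.2 to 76.7) in Balb/c females, above the macrophage-like share of the same group each time. Endothelial-like barcodes held 66.8% in C57BL/6J and 67.3% in Balb/c females, but 47.7% in Balb/c males. In thin limb-like barcodes of all 3 groups the interval lay outside that of macrophage-like barcodes of the same group. These intervals pool UMIs over libraries and cover counting error only, so the difference between classes was not tested over libraries. In bulk the ratio of H2-Ab1 to H2-Aa reads was 0.419 to 0.486 in the 6 C57BL/6J libraries and 1.06 to 1.42 in the 9 Balb/c libraries. That order of strains is opposite to the macrophage-like shares above (58.5% in C57BL/6J and 47.2% in Balb/c females). By the study's methods, bulk read length differed between the experiments, and its part in the ratio was not tested. H2-Ea-ps, the I-E alpha locus annotated as a polymorphic pseudogene, was listed in the 9 Balb/c bulk libraries (47 to 1922 reads) and in no other library. Reads of the partner of H2-Eb1 were thus seen in Balb/c alone, and C57BL/6J H2-Eb1 was counted without it. The reference genome is that of C57BL/6J, and its part in these strain values was not tested.

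Class II transcripts outside the immune-like classes were low, and of 4 classes compared, thin limb-like barcodes held the most member UMIs per companion UMI. Endothelial-like barcodes were not among the 4, and member and companion levels of their clusters are given at the end. Companions were 135.9 CPM in C57BL/6J thin limb-like barcodes and 39.7 CPM in Balb/c female ones. Members came at 9.0, 15.5 and 28.3 UMIs per companion UMI in thin limb-like barcodes of C57BL/6J, Balb/c males and Balb/c females, against 4.02, 4.77 and 2.87 in macrophage-like barcodes. Proximal tubule-like barcodes had 3.30, 3.8 and 6.25, and thick ascending limb-like barcodes 2.32, 2.33 and 1.45. At 500 UMIs a Cd74 UMI was found in 14.3% of C57BL/6J thin limb-like barcodes (8.54 to 22.9), 12.9% of endothelial-like (10.8 to 15.4), 7.37% of proximal tubule-like and 6.83% of thick ascending limb-like barcodes (4.55 to 10.1). Of 40 NK-like barcodes, a type that should lack it, 15% had one (7.06 to 29.1). That interval covers the thin limb-like, endothelial-like and proximal tubule-like shares of C57BL/6J. The part of background RNA in any of these shares was not tested. Median depths were 2516, 1244 and 1286 UMIs in thin limb-like, endothelial-like and NK-like barcodes. In Balb/c males the shares were 18.8% in thin limb-like, 14.2% in endothelial-like and 6.57% in proximal tubule-like barcodes and 1 of 10 in NK-like ones. In Balb/c females 13.7% of thin limb-like and 11.3% of endothelial-like barcodes had a Cd74 UMI, against 0 of 125 NK-like barcodes (up to 2.4%), 1.31% of thick ascending limb-like and 2.71% of proximal tubule-like ones. Median depths were 3372, 2148, 2346, 3801 and 2568.5 UMIs in that order, and before thinning the shares were 27.1%, 26.8%, 5.60%, 4.81% and 9.73%.

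Within the Balb/c female thin limb-like class the members stood highest in one cluster. These clusters were picked after their values were seen. Cluster 33, led by C3, Ptgds, Igf1, Vcam1 and Cxcl10, held the members at 2490, 3432 and 3144 CPM in fresh libraries (77 barcodes) and 3863, 2751 and 3930 CPM in cryopreserved ones (112 barcodes), with companions at 61.0 and 47.8 CPM. At least 1 Cd74 UMI was present in 83.1% of its fresh barcodes and at least 5 in 54.6%, while the leukocyte gene Ptprc and the macrophage gene C1qa were at 0 and the tubule cadherin gene Cdh16 was at 1138 CPM. The other thin limb-like clusters, 29 and 32, held 28.4 and 343 CPM fresh and 456 and 919 CPM cryopreserved. In cluster 29 the companions went from 22.3 to 229 CPM and C1qa from 0 to 84.9 CPM, and a Cd74 UMI was present in 5.26% of fresh and 5.34% of cryopreserved barcodes, 2 of the latter holding at least 5. At a coarser clustering, cluster 33 was joined with cluster 32.

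Proximal tubule-like barcodes of C57BL/6J also had a cluster with higher member levels, 39, of 155 barcodes from 11 libraries with 2 marked as doublets. It was led by the interferon-induced genes Iigp1, Ifit3, Igtp, Irgm1 and Gbp2. The members stood at 2401, 1044 and 1586 CPM in fresh cold libraries (52 barcodes, companions 50.0 CPM) and at 340, 630 and 1781 CPM in fresh warm ones (28 barcodes), compared with 293 CPM over all proximal tubule-like barcodes. Without thinning, a Cd74 UMI was present in 40.4% of its fresh cold barcodes. In Balb/c female nuclei a proximal tubule-like cluster of 88 nuclei led by Cxcl10, Irgm2 and Iigp1 held 417, 360 and 425 CPM in the 3 preparations, with companions between 0 and 15.2 CPM, against 43.6 to 249.1 CPM over all nuclei. The cause was not tested.

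Warm dissociation was compared with cold to ask whether digestion temperature changes the measured profile. In bulk suspensions of C57BL/6J kidney, 4 of 7 members were lower after warm dissociation and 3 did not pass the test, with 8.68% of 14102 genes called and a median log2 difference of -0.39 for members against -0.01 for all genes. Ciita fell most, from 21.3, 24.3 and 23.0 CPM to 11.8, 15.5 and 8.57 CPM (-0.96 ± 0.17, edgeR adjusted p = 0.00446), and the groups did not overlap. Cd74 fell from 427, 456 and 502 CPM to 389, 391 and 329 CPM (-0.35 ± 0.09, edgeR adjusted p = 0.0324), H2-Aa by 0.40 ± 0.09 (edgeR adjusted p = 0.0202) and H2-Eb1 by 0.33 ± 0.09 (edgeR adjusted p = 0.0464). H2-DMb1, H2-DMa and H2-Ab1 had -0.44, -0.39 and -0.24 (edgeR adjusted p = 0.0593, 0.183 and 0.11). Leaving out 1 library at a time, the call of Ciita held in 6 of 6 fits, while those of Cd74 and H2-Aa were lost in 4 of 6 (adjusted p of 0.0249 to 0.134 and 0.0108 to 0.0923) and that of H2-Eb1 in 5 of 6 (0.0436 to 0.169). Of the 11 companions, 8 were lower, with a median of -0.66. In bulk RNA, fewer cells of a type and less RNA per cell cannot be told apart.

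Over all barcodes of fresh 10x libraries, where 18.7% of 11052 genes were called, 6 of 7 members were lower after warm dissociation. Cd74 went from 4003, 4305 and 4226 CPM to 2927, 2398 and 2632 CPM (-0.65, edgeR adjusted p = 0.00103), H2-DMb1 had -0.79 (0.00196), Ciita -1.17 (0.0139) and H2-DMa -0.54 (0.00508), all adjusted p from edgeR. H2-Ab1 (-0.29, edgeR adjusted p = 0.0381) and H2-Aa (-0.28, 0.0432) lost their calls in 5 and 6 of 6 fits without one library, and the call of Ciita was lost without cold fresh replicate 3 (0.0582). Companions moved likewise, 11 of 11 lower with a median of -0.73. Within macrophage-like barcodes edgeR called 0 of 6 members tested (3.48% of all genes called, member median 0.09, 0 also at an unadjusted p under 0.05 and 0 by DESeq2), with 110628, 93276 and 107752 CPM after warm dissociation overlapping the cold values. Within proximal tubule-like barcodes edgeR called 0 of 6 as well (7.61% called, 0 at an unadjusted p under 0.05 and 0 by DESeq2), at 309, 295 and 277 CPM. In the other 11 classes 0 of 33 member tests were called by edgeR and 0 by DESeq2, with 6 at an unadjusted p under 0.05 and 0.233% to 7.42% of genes called. Immune-like barcodes were 11.6% of cold and 8.18% of warm barcodes.

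Of the other 29 pathway genes, a list that holds the presentation cathepsins, the RFX and NF-Y subunits, interferon-gamma signalling and the costimulators, 26 were tested in bulk and 2 rose and 3 fell with warm dissociation, Irf1 and Cd83 among the strongest. Over all barcodes 4 rose and 5 fell of 26, and Cd83 and Cd86, both costimulatory markers of activated presenting cells, passed the test in macrophage-like barcodes while no member did.

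**Figure D4:**
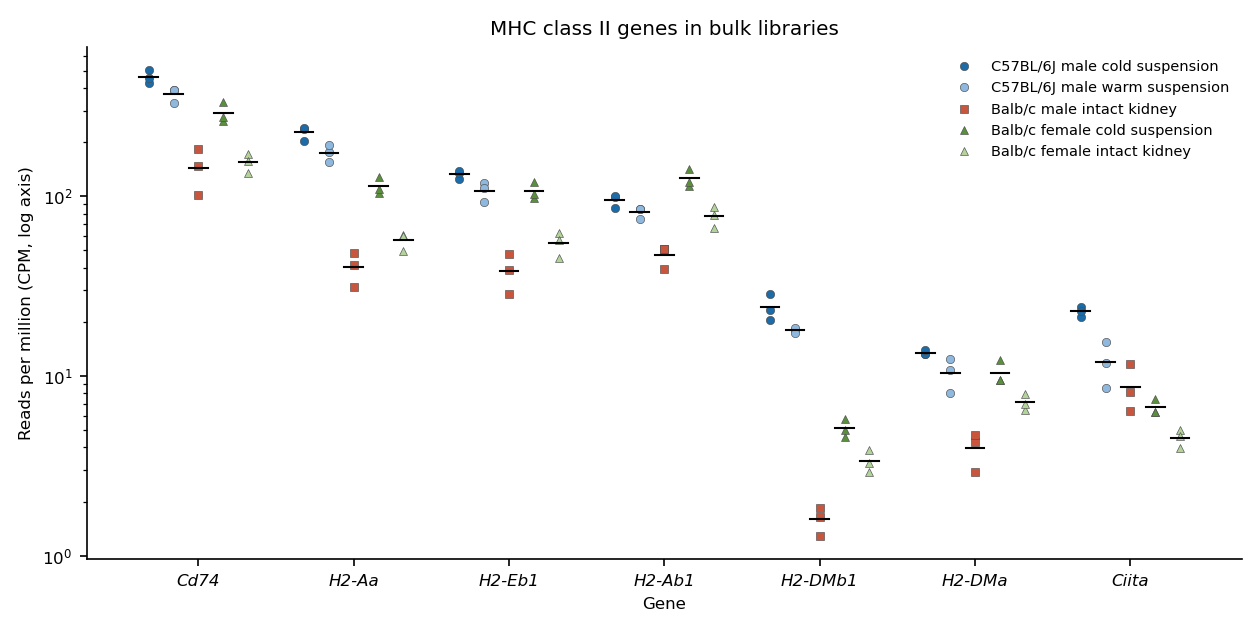
CPM of each member (log axis) in the 15 bulk libraries, one point per library, by group. The warm C57BL/6J points for Ciita lie between 8.57 and 15.5 CPM, below the cold ones at 21.3 to 24.3 CPM, and Balb/c female intact kidney lies below the cold suspension for Cd74.

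Intact kidney was compared with cold suspension in Balb/c females to ask what dissociation itself does. All 7 members were lower in intact kidney, with 20% of 16538 genes called and a member median of -0.69. Cd74 stood at 135, 171 and 157 CPM in intact kidney and 263, 278 and 334 CPM in suspension (-0.91 ± 0.10, edgeR adjusted p = 0.000243), and H2-Aa at 49.4, 61.2 and 60.2 against 104, 109 and 128 CPM (-0.99 ± 0.09, edgeR adjusted p = 9.01e-05). H2-Eb1 and H2-Ab1 had -0.95 and -0.69 (edgeR adjusted p = 0.000288 and 0.00141), and none of the 4 lost its call without one library. H2-DMa, H2-DMb1 and Ciita had -0.54, -0.59 and -0.55 (edgeR adjusted p = 0.0217, 0.023 and 0.0155) and lost it in 3, 4 and 2 of 6 fits. The companions were lower too, 11 of 11 with a median of -1.09. Of 26 other pathway genes 2 were higher and 8 lower in intact kidney, H2-Ea-ps among the lower ones (-0.94 ± 0.08, edgeR adjusted p = 4.91e-05), as was Ctss, the cathepsin that trims the invariant chain.

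After cryopreservation the members were higher over whole libraries, and few changed within classes. Over all barcodes, the cold C57BL/6J sums went from 6692, 6731 and 6504 CPM fresh to 33320, 23235 and 32265 CPM cryopreserved. All 7 members rose there, by 1.27 (H2-DMb1) to 2.17 (H2-Eb1) on the log2 scale, in a comparison that called 58.8% of 9125 genes, and 11 of 11 companions rose with a median of 1.80. Immune-like barcodes went from 11.6% to 50.4%. In warm-dissociated suspensions the sums went from 5149, 4208 and 4677 to 15985, 24500 and 20166 CPM, and all 6 members tested rose (66% of genes called). In Balb/c females they went from 1727, 1355 and 2772 to 5803, 6111 and 8121 CPM, with 7 of 7 members up by 1.27 to 1.95 (58.1% of genes called) and immune-like barcodes going from 5.93% to 20.2%. A level over all barcodes cannot separate more immune cells from more RNA per cell.

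Within macrophage-like barcodes the classical chains moved and Cd74 did not pass the test. In Balb/c females, where 7.89% of genes were called, 3 of 7 members rose. H2-Ab1 went from 9012, 8310 and 9802 to 10329, 11445 and 12499 CPM (0.55 ± 0.09, edgeR adjusted p = 0.0012), without overlap, and was called in all 6 fits that left out a library. H2-Eb1 rose by 0.39 ± 0.09 and H2-Aa by 0.36 ± 0.09 (edgeR adjusted p = 0.00946 and 0.0201), but 2 and 4 of 6 such fits lost them (DESeq2 adjusted p = 0.135 and 0.214). Cd74 had 0.08 ± 0.08 (edgeR adjusted p = 0.667, 95% interval -0.08 to 0.23). In cold C57BL/6J suspensions, with 16.5% of genes called, H2-Eb1 alone rose, from 12684, 9674 and 7651 to 16566, 15218 and 16446 CPM (0.61 ± 0.17, edgeR adjusted p = 0.0107, lost in 3 of 6 fits at 0.0558 to 0.0768), and Cd74 had -0.12 ± 0.18. On the scale of totals alone, without the trimmed mean of M-values (TMM) factors used elsewhere, the median of all genes in Balb/c female macrophage-like barcodes moved by -0.24, and H2-Ab1 alone was called of the 3. After warm dissociation edgeR called 0 of 6 members in macrophage-like barcodes (22.7% of genes called, 0 at an unadjusted p under 0.05 and 0 by DESeq2). The mitochondrial share of macrophage-like UMIs went from 23.2% to 12.2% in cold C57BL/6J, from 19.3% to 13.8% in warm and from 26.6% to 35.6% in Balb/c females, and its part was not tested.

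**Figure D5:**
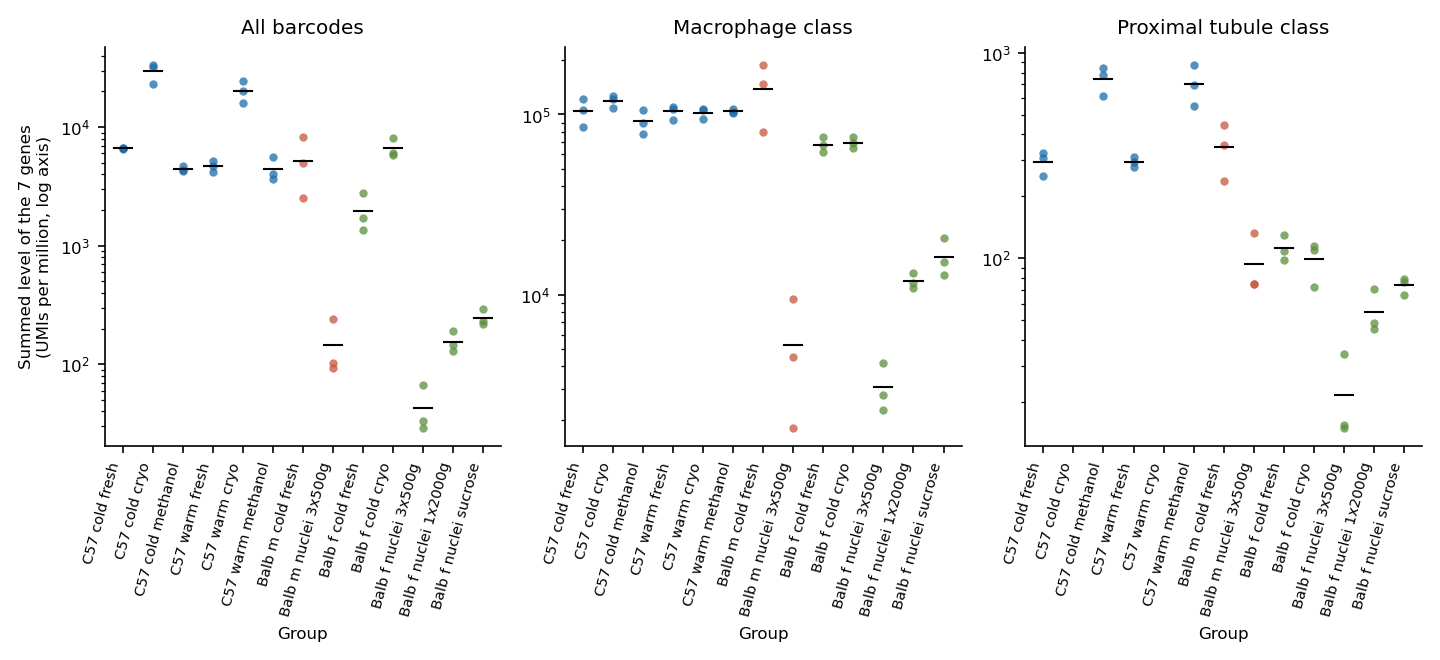
Summed member CPM (log axes) over all barcodes, in macrophage-like and in proximal tubule-like barcodes for the 13 groups of 10x libraries, one point per library. Over all barcodes the cryopreserved libraries lie between 5803 and 33320 CPM and the fresh ones between 1355 and 8210 CPM. These ranges overlap, but each cryopreserved group lies above the fresh group of its own strain and dissociation. Macrophage-like cells show no gap of that size.

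In the other classes cryopreserved cells gave scattered calls. In sparse tubule-like classes a member low in fresh cells can pass the filter on low counts through the cryopreserved libraries alone. Cold principal cell-like H2-Ab1, for example, stood at 33.0 CPM fresh and 143.8 CPM cryopreserved. Counts of members that rose among those tested are thus partly fixed by the filter. Cold monocyte-like barcodes fell in Cd74 from 26333, 14517 and 9147 to 4933, 7580 and 7149 CPM (-1.34 ± 0.30, edgeR adjusted p = 0.00989, 6.33% of genes called), a call lost without cryopreserved replicate 1 or 3 and under a coarser clustering (0.229). Cold intercalated-like barcodes rose in H2-Ab1 (1.75) and H2-Eb1 (1.93) with 8.8% of genes called, and connecting tubule-like and principal cell-like barcodes rose in H2-Ab1 (1.55 and 2.19, with 3.51% and 1.58% called). Left-out libraries removed these calls in 4, 3, 2 and 1 of 6 fits, the last without cryopreserved replicate 2 (0.342). With the shared suspension as a block, 10 member tests in classes were called in place of 6. After warm dissociation, intercalated-like barcodes rose in 4 of 4 members tested (1.72 to 2.43, 10.7% called), Cd74 among them from 79.2, 104 and 111 to 538, 311 and 279 CPM, and thick ascending limb-like barcodes in 3 of 4 (8.15% called). Cd74 also rose in distal convoluted tubule-like barcodes (1.72, 5.59% called) and, with H2-Eb1, in endothelial-like ones (0.93 and 0.86, 8.9% called, H2-Eb1 lost in 5 of 6 fits). In Balb/c females Cd74 fell in principal cell-like barcodes (-1.64, edgeR adjusted p = 0.0264, 2.46% called, lost in 4 of 6 fits). The member tested in podocyte-like barcodes (0.734% called) and the 5 in proximal tubule-like barcodes (11.8% called) gave 0 calls by edgeR and 0 by DESeq2, with 1 and 0 at an unadjusted p under 0.05. In the remaining classes edgeR and DESeq2 called 0 of 33 member tests after cold dissociation (3 at an unadjusted p under 0.05, 0.451% to 16.6% of genes called), 0 of 20 after warm dissociation (4, 0.113% to 11.2%) and 0 of 18 in Balb/c females (4, 0.156% to 6.76%). Immune-like barcodes were 50.4% of the cold and 36.0% of the warm cryopreserved C57BL/6J libraries, and the part of immune RNA in the tubule-like levels was not tested.

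Endothelial-like Cd74 was the 1 member value whose response to cryopreservation differed between dissociations by a test of the difference. It went from 457, 566 and 718 to 346, 414 and 496 CPM in cold suspensions and from 518, 605 and 294 to 931, 798 and 754 CPM in warm ones. The interaction was 1.52 ± 0.32 (edgeR adjusted p = 0.0166), in a fit that called 0.474% of 5480 endothelial-like genes, and the other 5 members tested there had edgeR adjusted p of 0.53 to 0.973. Over all barcodes (12.9% called) and in macrophage-like barcodes (1.05% called) 0 of 6 members were called, 0 at an unadjusted p under 0.05. In the other 10 classes edgeR called 0 of 39 member tests (0% to 2.52% of genes called), and 6 had an unadjusted p under 0.05, all with a more positive difference after warm dissociation, among them distal convoluted tubule-like Cd74 (2.56) and mural-like H2-Eb1 (7.29), with edgeR adjusted p of 0.162 to 0.671. Cd74 in endothelial-like barcodes was not called when genes listed at 0 in a library were kept, and leaving out 1 library gave 0 to 2 member calls.

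In Balb/c female thin limb-like barcodes, Cd74 rose from 561, 679 and 664 to 1033, 932 and 1064 CPM (0.69 ± 0.14, edgeR adjusted p = 0.00967) and H2-Ab1 from 201, 299 and 238 to 495, 325 and 557 CPM (0.92 ± 0.19, edgeR adjusted p = 0.0119), with 1.13% of genes called and no overlap in either. The calls were lost without any 1 fresh library for Cd74 (0.0671 to 0.105) and without fresh replicate 1 or 3 for H2-Ab1 (0.14 and 0.13). Companions went from 35.4, 43.0 and 40.7 to 28.2, 38.0 and 329 CPM, high in 1 cryopreserved library, and the part of that in the rise was not tested. The member level was higher after cryopreservation in the low clusters 29 and 32 too, as given above. Cluster 33, the high one, was 77 of 321 fresh and 112 of 339 cryopreserved thin limb-like barcodes.

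After methanol fixation the members were lower over whole libraries of cold suspensions, and in both dissociations most were higher in proximal tubule-like barcodes. Over cold libraries, 6 of 6 members tested fell (35.4% of genes called), by 0.41 for H2-Aa to 0.74 for H2-Ab1, and 7 of 11 companions fell. Immune-like barcodes were 11.6% of fresh cold and 7.69% of methanol-fixed cold barcodes. A level over all barcodes cannot separate fewer immune cells from less RNA per cell. In proximal tubule-like barcodes of the same libraries all 6 rose, with 23.2% of genes called, and Cd74 went from 166, 138 and 175 to 340, 430 and 464 CPM (1.17 ± 0.14, edgeR adjusted p = 0.000119). H2-Aa went from 33.8, 26.4 and 32.4 to 68.2, 95.7 and 110 CPM (1.39 ± 0.18, edgeR adjusted p = 0.000199) and H2-DMa from 6.76, 4.57 and 5.94 to 16.4, 16.9 and 19 CPM (1.42 ± 0.22, edgeR adjusted p = 0.000572). H2-DMb1 rose least (0.77 ± 0.20, edgeR adjusted p = 0.0142, 0.0701 without methanol replicate 2). Companions rose beside them, 8 of 9 with a median of 1.49, from 81.7, 70.0 and 111 to 414, 259 and 309 CPM. The H2-Ab1 share of I-A UMIs in proximal tubule-like barcodes was 65.2% fresh and 59.1% after methanol, and 51.7% in methanol macrophage-like barcodes.

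In cold suspensions, fresh immune-like barcodes held 94.9% of member UMIs (11.6% of barcodes) and methanol-fixed ones 83.7% (7.69% of barcodes). Warm-dissociated cells behaved alike in proximal tubule-like barcodes, where 5 of 6 members rose (18.9% called, Cd74 by 1.20 ± 0.12, edgeR adjusted p = 0.000131), H2-DMa losing its call in 5 of 6 fits without a library. Cold connecting tubule-like barcodes rose in 2 of 4 members (Cd74 by 1.25, 16.2% called), distal convoluted tubule-like in 2 of 4 (H2-Ab1 by 1.39, 23.1% called), principal cell-like in 2 of 2 (Cd74 by 1.58, 10.2% called), and intercalated-like and mural-like in H2-Ab1 (0.90 and 1.46, 13.5% and 11.2% called). Of these the H2-Ab1 calls of principal cell-like and intercalated-like barcodes were lost in 6 and 4 of 6 fits without a library. As after cryopreservation, sparse members can pass the filter on low counts through the stored cells alone, which partly fixes these counts. After warm dissociation Cd74 rose in distal convoluted tubule-like (1.53, 13.5% called), intercalated-like (2.69, 7.38% called) and endothelial-like barcodes (0.92, 10.5% called, lost in 5 of 6 fits).

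The immune-like classes moved the other way or did not pass the test. In cold dendritic-like barcodes H2-DMb1 fell by 0.73 and H2-Ab1 by 0.61, 2 of 6 members with 29% of genes called, and the second was lost in 3 of 6 fits. Over all warm barcodes edgeR called 0 of 6 (28.7% of genes called, 0 at an unadjusted p under 0.05, 0 by DESeq2 and 2 with the suspension as a block). In macrophage-like barcodes 2 of 6 fell after cold dissociation, H2-Ab1 by 0.61 and H2-DMb1 by 0.49 (25.6% called, edgeR adjusted p = 0.0434 and 0.0433, lost in 5 and 4 of 6 fits), 4 with the block and 0 on the scale of totals alone, on which the median of all genes stood 0.27 higher. After warm dissociation edgeR called 0 of 6 there (9.95% called, 2 at an unadjusted p under 0.05 and 0 by DESeq2). In the other classes edgeR and DESeq2 called 0 of 28 member tests cold (3 at an unadjusted p under 0.05, 2.13% to 27.6% of genes called) and 0 of 14 warm (6, 1.06% to 14%). In the edgeR test of the interaction of methanol with dissociation, 0 of 6 members were called over all barcodes (0.0289% called, 4 at an unadjusted p under 0.05, Cd74 by 0.69 with an edgeR adjusted p of 0.324), 0 of 6 in macrophage-like and 0 of 6 in proximal tubule-like barcodes (0% called and 0 at an unadjusted p under 0.05 in each), and 0 of 30 in the other classes (2).

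The Balb/c male and C57BL/6J male fresh cold cells share sex, enzyme and chemistry but not experiment or depth, the median UMIs per barcode in Balb/c males being 343 to 688. Over all barcodes the summed members stood at 8210, 4938 and 2504 CPM in Balb/c, overlapping the 6504 to 6731 CPM of C57BL/6J, but the C57BL/6J totals include mitochondrial UMIs and the Balb/c totals do not. Over the genes listed in all 6 libraries, 5 of 6 members tested were lower in Balb/c (18.8% called), H2-Ab1 most (-1.90, edgeR adjusted p = 0.000233), then H2-DMb1 (-1.52), H2-Eb1 (-1.36) and H2-DMa (-1.31), with H2-Aa at -1.02 (edgeR adjusted p = 0.0141, 0.0585 without Balb/c male replicate 2). Companions were lower as well, 9 of 11 with a median of -1.20. On the scale of totals alone 5 of 6 members were lower as well, while the median of all genes stood 0.17 higher. In macrophage-like barcodes edgeR called 0 of 6 (3.38% of genes called, 1 at an unadjusted p under 0.05 and 0 by DESeq2), from -0.91 for H2-Ab1 (edgeR adjusted p = 0.172) to 0.19 for Cd74. H2-Ab1 and H2-DMb1 were lower in proximal tubule-like barcodes (-1.33 and -2.50, edgeR adjusted p = 0.000296 and 0.000241, 9.13% called). Mural-like Cd74 was higher in Balb/c by 2.70 (7.52% of genes called), but not without Balb/c male replicate 2 (edgeR adjusted p = 0.919). Intercalated-like barcodes were lower in H2-Ab1 (-1.76) and Cd74 (-1.23, 18.6% called) and endothelial-like ones in H2-Ab1 (-0.87, edgeR adjusted p = 0.0348, 6.43% called, lost in 3 of 6 fits). In the other 9 classes edgeR called 0 of 21 member tests (7 at an unadjusted p under 0.05, 2.45% to 9.49% of genes called) and DESeq2 1, Cd74 in monocyte-like barcodes.

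Nuclei held far less class II RNA than cells, in a comparison that called most genes. Immune-like barcodes were 5.93% of female cells and 0.390% of female 3x500g nuclei, and 8.96% and 0.284% in males. In Balb/c females the summed members went from 1727, 1355 and 2772 CPM in cells to 33.4, 66.9 and 28.9 CPM in 3x500g nuclei. Of the 7 members 6 were lower, by 4.99 to 6.90 on the log2 scale, with 88.9% of genes called. Macrophage-like nuclei had 2285, 4150 and 2772 CPM, against 67407, 62062 and 74643 CPM in cells, and the same 6 members were lower by 5.03 to 6.68 (80.3% called). In Balb/c males 6 of 6 were lower over all barcodes (81.6% called), from -3.78 for H2-Ab1 to -6.08 for Cd74, and 5 of 6 in macrophage-like barcodes (74.1% called).

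In the other classes the members called were lower as well. From 57.8% to 88% of all genes were called there, so these counts do not set the members apart from other genes. The share of all genes that were lower is not given here. A member low in nuclei can also pass the filter on low counts through the cells alone. Female thin limb-like nuclei were lower in 5 of 5 members tested, Cd74 by 6.42 on the log2 scale (77.4% called), endothelial-like nuclei in 5 of 5 by 2.6 to 2.85 (79.4% called), connecting tubule-like in 4 of 4 (81.9% called) and thick ascending limb-like in 4 of 4 (81.3% called). Cd74 was the 1 member tested, and was lower, in distal convoluted tubule-like (78.1% called), intercalated-like (76% called) and principal cell-like nuclei (78.3% called). In males 5 of 6 were lower in proximal tubule-like (76.5% called, Cd74 by 2.99), 3 of 4 in endothelial-like (73.6% called) and 1 of 2 in thick ascending limb-like nuclei (57.8% called). Cd74, the 1 tested, was lower in the male connecting tubule-like (74.7% called), distal convoluted tubule-like (60.3% called), intercalated-like (73% called), principal cell-like (78.4% called) and thin limb-like nuclei (88% called).

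Ciita went the other way. In Balb/c female proximal tubule-like barcodes it stood at 0.205, 0.298 and 0.215 CPM in cells (9 UMIs) and 3.14, 6.32 and 2.84 CPM in 3x500g nuclei (197 UMIs), higher by 2.76 (edgeR adjusted p = 0.000253, 87.4% of genes called) in every fit without a library. Ciita passed the filter on low counts there through the nuclei alone, so this test adds no support to the counts. In macrophage-like barcodes it stood at 38.9, 24.7 and 22.6 CPM in cells and 123, 146 and 109 CPM in nuclei, with 0.62 on the log2 scale after TMM scaling (edgeR adjusted p = 0.108) and 1.85 on the scale of totals alone (edgeR adjusted p = 6.74e-05), on which the median of all genes stood 1.24 higher. Over all barcodes it was higher by 0.70 (edgeR adjusted p = 0.0453, lost in 5 of 6 fits, DESeq2 adjusted p = 0.0675). The counts of nuclei include intronic reads and those of cells do not, and Ciita spans more of the genome than any other member, so counting and compartment cannot be told apart.

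The ways of preparing nuclei also differed. Sucrose and 3x500g nuclei differ in sorting as well as in washing and spin, and these cannot be told apart. Against 3x500g, 1x2000g nuclei were higher in 6 of 7 members over all barcodes (37.9% of genes called, by 1.32 to 2.24) and sucrose nuclei in 6 of 7 (49.1% called, by 1.61 to 3.06), with Ciita at 0.24 in the first and not called. Macrophage-like nuclei had 11637, 13177 and 10854 CPM in 1x2000g and 15226, 20540 and 12842 CPM in sucrose preparations, all above 3x500g. There 5 of 6 members were higher in 1x2000g (13% called) and 6 of 7 in sucrose (4.55% called), the latter being 0 when marked doublets were left out (edgeR adjusted p of 0.0683 to 0.19). The macrophage-like nuclei were 30 in each 3x500g library, of which 1, 15 and 1 were marked as doublets, and 9 of 9 companions tested rose over all barcodes in each comparison, with 7 of 9 and 6 of 8 in macrophage-like nuclei.

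The same difference stood in nuclei of other classes. A member with few UMIs in 3x500g nuclei passes the filter on low counts through the other preparation alone, here and in macrophage-like nuclei. The counts over members tested are thus partly fixed by the filter. In 1x2000g nuclei 4 of 7 members were higher in proximal tubule-like (24.7% called), 4 of 5 in thick ascending limb-like (24.5% called), 4 of 6 in endothelial-like (21.2% called), 3 of 3 in distal convoluted tubule-like (11.1% called) and 2 of 4 in fibroblast-like ones (6.79% called). Both members tested were higher in connecting tubule-like (14.2% called), principal cell-like (9.59% called) and thin limb-like nuclei (11% called), as was the 1 tested in intercalated-like ones (10.2% called). In sucrose nuclei the counts were 4 of 7 in proximal tubule-like (36.8% called), 4 of 4 in thick ascending limb-like (37.1% called), 5 of 6 in endothelial-like (19.2% called) and 3 of 4 in fibroblast-like ones (3.85% called). They were 2 of 2 in connecting tubule-like (25.6% called) and principal cell-like (18.2% called), 1 of 2 in intercalated-like (18.6% called), and 1 of 1 in distal convoluted tubule-like (20.6% called) and thin limb-like nuclei (14.5% called). Cd74 was among the members called in each of these classes, by 1.37 to 2.24 in 1x2000g and by 1.82 to 2.80 in sucrose nuclei.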

How the data were processed

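The data are tables of counts from 39 10x libraries of mouse kidney cells or nuclei and 15 bulk libraries. According to the study's methods, the authors made the 10x UMI count tables with Cell Ranger 2.1.1 on mm10, counting exonic reads for cells and intronic plus exonic reads for nuclei, called cells with EmptyDrops and kept genes seen in at least 10 cells. The authors made the bulk count tables with Trim Galore, TagDust2, STAR 2.6.1a on GRCm38, Picard and featureCounts. Whether counting used strand is not given in the sources used here. Replicates were deposited separately, and 0 columns of per-sample values were left unused.

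Barcodes of 5 sets (C57BL/6J cells, Balb/c male cells and nuclei, Balb/c female cells and nuclei) were clustered on 2000 variable genes (without the members, the other pathway genes, other H2 genes, dissociation stress genes and mitochondrial, ribosomal protein and globin genes), 30 principal components and 20 neighbours with leidenalg 0.10.2 (resolution 2, seed 1), giving 46, 27, 31, 45 and 61 clusters. A cluster was named from fixed markers, of which at least 3 had to be detected in 10% of its barcodes at 1.5-fold over the rest. Doublets were simulated, the highest scoring 0.8% per 1000 barcodes of a library were marked (2.49% to 6.67% of a set) and these were kept in the main fits. A pair of libraries shared at most 1.784% of the barcodes of the smaller one. UMIs were summed per library and class, with at least 10 barcodes per library and 2 libraries per group, and tested in edgeR 4.0.16 (quasi-likelihood, limma 3.58.1, R 4.3.3) with TMM scaling, filterByExpr and Benjamini-Hochberg adjustment over all genes of a class at 0.05. Genes listed at 0 in a library of the comparison were left out of it, since a gene under the minimum of cells is then not measured. Table totals were 983522 to 35170947 UMIs and 2326998 to 31093949 reads, and intervals cover counting error only. Shares of barcodes of a class were taken after thinning to 500 UMIs unless stated otherwise, and those of numbered clusters without thinning.

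Barcode names tied each C57BL/6J suspension to its fresh, cryopreserved and methanol libraries. Deviations of libraries of the same suspension correlated at 0.435 to 0.623 for methanol and at -0.159 to 0.240 for cryopreservation. The main fits carry no block. On simulated counts, 2-fold changes were recovered for 92.6% of genes in the bulk warm against cold comparison (13935 genes). The share was 60.2% in fresh macrophage-like sums (2094 genes) and 84% over all fresh barcodes (11733 genes). Unchanged genes were called in 0.0728%, 0.313% and 0.078%. The simulation gave all genes the same dispersion and no suspension effect, so rates in the real data may be less favourable. Alternatives were DESeq2 1.42.0, RLE size factors, no filter on low counts, resolution 1, doublets left out, thinning to 1000 UMIs, the replicate block and each library left out. Keeping genes listed at 0 and scaling to totals alone were chosen after seeing the data.

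The 7 members, the 29 other pathway genes and the 11 companions were chosen with earlier results of these data known, and the clusters described by number were chosen after their values were seen. The text names all 7 members, and other genes only from those lists, as leading genes of a cluster or as the genes most like the summed members. Promoters were read from a RefSeq table of GRCm38.p6.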

Additional observations from a re-analysis of the deposited data

Results flagged for a closer look

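Each of 245 pairs of responses was compared between strains, sexes or dissociations. In 7 of them every library of one group moved one way and every library of the other the opposite way, and these differences were not tested. The share of all genes that meet this rule is not given here, and several of the values lie close to the floor. H2-Ab1 in principal cell-like barcodes stood at 33.1 CPM in Balb/c male nuclei and 0 in male cells, but at 1.67 CPM in female nuclei and 16.3 CPM in female cells. After cryopreservation of cold suspensions, H2-Aa in distal convoluted tubule-like barcodes went from 33.2 to 56.8 CPM in C57BL/6J and from 10.5 to 0 in Balb/c females, and H2-Ab1 in principal cell-like barcodes from 33.0 to 143.8 and from 16.3 to 3.20 CPM. Against the same Balb/c females, warm C57BL/6J suspensions went from 4.12 to 22.4 CPM in connecting tubule-like H2-DMa (Balb/c 1.41 to 0), from 16.2 to 68.9 CPM in distal convoluted tubule-like H2-Aa, from 472 to 828 CPM in endothelial-like Cd74 (Balb/c 347 to 191) and from 74.3 to 210.8 CPM in principal cell-like Cd74 (Balb/c 40.0 to 11.7). The Balb/c female values are shared between these comparisons. By the study's account, cryopreserved Balb/c female suspensions were also stored for a shorter time and spun faster than C57BL/6J ones. Strain, sex, storage time and spin cannot be told apart in them. The interaction of cryopreservation with dissociation for endothelial-like Cd74, 1.52 on the log2 scale (edgeR adjusted p = 0.0166), was the 1 tested difference.

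A cluster of Balb/c female nuclei left without a name, numbered 42 and led by Wdfy4, Ikzf3, Bank1 and Pax5, held the summed members at 3241, 1484 and 4536 CPM in 1x2000g, 3x500g and sucrose preparations (69, 67 and 93 barcodes), against 153.7, 43.6 and 249.1 CPM over all nuclei. Companions stood at 1199, 1012 and 1030 CPM in it, and without thinning a Cd74 UMI was present in 66.7%, 49.3% and 72.0% of its barcodes. Of its 229 barcodes 70 were marked as doublets, and their part was not tested.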

How the results depend on the processing

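No called member value or count changed direction under any alternative run. Counts of member tests called over all classes moved from 0 to 1 with doublets left out and 5 without a filter on low counts for fresh warm against cold, from 6 to 11, 14 and, with the replicate block, 10 for cold cryopreservation, from 10 to 17 without the filter for warm cryopreservation, from 6 to 3 (DESeq2), 3 (doublets) and 18 (no filter) in Balb/c females, from 7 to 4 (DESeq2), 13 (resolution 1) and 14 (no filter) between strains and from 34 to 55 without the filter in female nuclei. Without the filter more members are tested. In macrophage-like barcodes, counts moved from 2 to 0 (no filter), 4 (block) and 0 (totals alone) for cold methanol, from 3 to 1 (DESeq2) and 1 (totals alone) for Balb/c female cryopreservation, from 5 to 3 (DESeq2) and 3 (genes listed at 0 kept) in male nuclei and from 6 to 0 (doublets left out) in sucrose nuclei. The warm methanol library sum moved from 0 to 2 with the block, male nuclei of proximal tubule-like type from 5 to 3 on totals alone, and the cryopreservation interaction from 1 to 0 with genes listed at 0 kept. For these counts the cause was not tested. The block changed no other count of calls by over 1.5 times.

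At resolution 1 the summed members stood at 75634 CPM in dendritic-like and 8293 CPM in monocyte-like C57BL/6J barcodes and 43013 CPM in Balb/c male B-like ones, and without doublets at 929 CPM in endothelial-like C57BL/6J barcodes. At 1000 UMIs, where the chance of a UMI is greater, Cd74 was found in 19.8% of endothelial-like and 11.8% of proximal tubule-like C57BL/6J barcodes, in 29.6% of thin limb-like, 9.09% of endothelial-like and 8.73% of proximal tubule-like ones in Balb/c males, and in 18.9%, 17.6% and 4.54% in Balb/c females.

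Leaving out 1 library gave 1 to 6 member calls in bulk warm against cold and 4 to 7 in intact kidney. Over classes it gave 0 to 2 for fresh warm against cold, 3 to 9 for cold cryopreservation, 11 to 26 (18 with all) for cold methanol, 5 to 16 (8 with all) for warm methanol, 2 to 9 for Balb/c female cryopreservation and 3 to 12 between strains. Library sums gave 3 to 5 for fresh warm against cold and 0 to 3 for warm methanol. Macrophage-like sums gave 0 to 3 for cold cryopreservation, 0 to 4 and 0 to 2 for cold and warm methanol, and 1 to 4 for Balb/c female cryopreservation. Proximal tubule-like sucrose nuclei gave 4 to 7, and the cryopreservation interaction 0 to 2. Cd74 shares at 500 UMIs ranged over 9.45% to 14.8% in endothelial-like C57BL/6J, 5.74% to 7.79% in proximal tubule-like Balb/c male and 8.91% to 12.5% in endothelial-like Balb/c female barcodes.

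Of the single member values called, RLE size factors moved 2 of 140 past the threshold, DESeq2 12 of 140, totals alone 11 of 140, doublets 9 of 128, resolution 1 1 of 129 and genes kept at 0 6 of 129. Warm and cold fresh libraries share only a number (correlations 0.363, 0.123 and -0.0711), and with it as a block H2-Ab1 and H2-Aa lost their library-sum calls (edgeR adjusted p = 0.0502 and 0.0586). No paired analysis was possible for bulk, strain, Balb/c female and nuclei comparisons because their names carry no shared number. Groups of 3 libraries and sparse tubule-like counts limit what could be called.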

Other observations

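Bulk intact kidneys of Balb/c males and females were prepared in separate experiments and were not compared by a test. Cd74 stood at 102, 184 and 146 CPM in the males and at 135, 171 and 157 CPM in the females, which overlap. H2-DMb1 stood at 1.65, 1.29 and 1.84 CPM in intact kidney of males and 2.93, 3.88 and 3.26 CPM in that of females, against 20.5, 28.6 and 23.2 CPM in cold suspensions of C57BL/6J males. Cold suspensions of Balb/c females held 4.55, 4.98 and 5.79 CPM. The C57BL/6J values lay above every Balb/c value, those of cold suspensions included, and strain, sex and experiment cannot be told apart in bulk.

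Among endothelial-like clusters of fresh cold libraries, the summed members stood at 1333, 634, 864 and 905 CPM in the 4 clusters of C57BL/6J (companions at 276, 114, 222 and 312 CPM) and at 1043, 403 and 177 CPM in the 3 of Balb/c females (companions at 60.1, 34.6 and 33.0 CPM).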
